A study of Mus musculus with 4 samples.

Results

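The 8 genes described here encode serpins, protease inhibitors of which most act inside the cell and several are known inhibitors of granzymes: Serpinb9, Serpinb9b, Serpinb6a, Serpinb6b, Serpinb1a, Serpine2, Serpina3g and Serpina3f. They were taken by name from the 14082 genes listed in each library's table, all 8 were found, and all 8 passed the filter on low counts that left 13358 genes for testing. The names had been chosen with results of the same comparison known. Their differences between the groups are therefore described with standard errors and carry no p-value, and nothing is supported with them.

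Bulk RNA had been sequenced from sorted CD8 T cells that recognise ovalbumin, taken from subcutaneous E.G7 tumours. E.G7 is a mouse lymphoma line, made from EL4, that produces ovalbumin. Mice were 6 to 10 weeks old when the tumour cells were injected. The 2 libraries labelled WT came from mice with genotype Smad4-fl/fl, and the 2 labelled KO from mice with genotype Cd8-cre Smad4-fl/fl, so both groups carried the floxed Smad4 gene and only KO carried the recombinase. The Cre acts where the Cd8 regulatory elements of the transgene are or were active, and neither the injected tumour cells nor host cells outside that lineage are deleted by it. Whether replicates are separate animals is not stated in the labels, so every p-value here rests on a spread between libraries that may be technical.

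Summed counts ranged from 24366540 to 26218277 per library. Smad4, the targeted gene, had 752 and 736 counts in WT and 779 and 1088 in KO. It was not called different (log2 fold change 0.19, adjusted p = 0.397 by edgeR's quasi-likelihood test), and it was called higher without KO replicate 1 (0.40, adjusted p = 0.00806) and had a value of -0.063 without KO replicate 2 (adjusted p = 0.784). A gene-level count also holds exons that Cre leaves in place, so this count does not check the labels. WT and KO stand throughout for the libraries labelled so, and every direction given rests on those labels. Mitochondrial genes took 10.3% ± 0.123 of the counts in WT and 6.78% ± 0.299 in KO (SD, n = 2 each). Markers of cells other than CD8 T cells were present in every library. In each, the monocyte and macrophage markers summed to more than the CD8 T cell markers. Which cells the serpin counts came from was not tested. The 12 monocyte and macrophage markers summed to between 19878 and 20664 CPM (counts scaled to library size with TMM factors) in WT and between 20453 and 21041 CPM in KO. The 12 neutrophil markers summed to 705 and 725 CPM in WT and 2016 and 2015 CPM in KO. By edgeR 8 of them were called higher and 0 lower, beside 10.1% and 11% of all tested genes. The count lower was also 0 by DESeq2, by limma-voom and before adjustment of p. Of the CD8 T cell markers, 9 of 10 were listed, and they summed to 3106 and 3159 CPM in WT and 2147 and 2121 CPM in KO, with 7 lower and 0 higher (edgeR, and 0 higher by DESeq2, by limma-voom and before adjustment of p). Cd8a and Cd8b1 had log2 fold changes of -0.93 and -0.96, whereas Cd3d had -0.14 and was not called (edgeR adjusted p = 0.123). Of the 3 listed NK cell markers, Ncr1 had 4 and 15 counts in WT and 0 and 19 in KO, Klrb1c had 15 and 20 against 28 and 16, and Klre1 fell from 1311 and 1437 counts to 385 and 440 (log2 fold change -1.87, edgeR adjusted p = 1.23e-07).

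Serpins present a reactive loop as bait. A protease that cuts the loop becomes covalently trapped on the inhibitor, and both molecules are consumed. Members of clade B lack a classical secretion signal and stay in the cytosol and nucleus, where in cytotoxic lymphocytes they meet granzymes that leak from the granules. Serpine2 is secreted, and Serpina3g belongs to an expanded mouse family related to the human gene for alpha-1-antichymotrypsin.

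The 8 genes lie at 3 places in the mouse genome (mm10, GENCODE M21 annotation), and all are annotated as protein coding. Serpinb1a (chr13:32842092-32851185), Serpinb6b (chr13:32965209-32979067), Serpinb9 (chr13:33003250-33017957), Serpinb9b (chr13:33027416-33041884) and Serpinb6a (chr13:33917918-34002794) belong to a cluster of clade B genes on chromosome 13. Serpina3f (chr12:104214544-104221129) and Serpina3g (chr12:104236245-104241939) are neighbours on chromosome 12, and Serpine2 (chr1:79794197-79861180) stands alone among the 8 on chromosome 1. Within the set, 3 pairs were close in coding sequence, as annotated. Serpina3g and Serpina3f were identical at 87.4% of 747 aligned bases, Serpinb9 and Serpinb9b at 86.5% of 1122 bases, and Serpinb6a and Serpinb6b at 86.4% of 1131 bases. The other 25 pairs ranged from 59.4% to 72.3%.

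RefSeq promoter windows on GRCm38.p6, the assembly called mm10, were matched for 7 of the 8 genes, with 9 windows in all because Serpina3f and Serpinb6a have several start sites. Each window runs from 250 bases before the start to 50 bases after its first base. The windows of both neighbouring paralog pairs are shown because the coding sequences of each pair are close. They were picked with the measured differences of these genes known. What part the windows have in those differences was not tested. Capitals mark matches, on either strand, to TTCNNNGAA (the GAS element bound by STAT proteins) or to GAAA, any 2 bases and GAAA again (part of the element bound by interferon regulatory factors).

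Serpinb9 (chr13:33004291-33004590, plus strand): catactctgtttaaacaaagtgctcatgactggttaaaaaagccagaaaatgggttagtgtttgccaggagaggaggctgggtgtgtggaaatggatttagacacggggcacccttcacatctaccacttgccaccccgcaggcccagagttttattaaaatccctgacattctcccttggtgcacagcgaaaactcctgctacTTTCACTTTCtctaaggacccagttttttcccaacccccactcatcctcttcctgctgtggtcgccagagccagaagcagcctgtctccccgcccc

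Serpinb9b (chr13:33027164-33027463, plus strand): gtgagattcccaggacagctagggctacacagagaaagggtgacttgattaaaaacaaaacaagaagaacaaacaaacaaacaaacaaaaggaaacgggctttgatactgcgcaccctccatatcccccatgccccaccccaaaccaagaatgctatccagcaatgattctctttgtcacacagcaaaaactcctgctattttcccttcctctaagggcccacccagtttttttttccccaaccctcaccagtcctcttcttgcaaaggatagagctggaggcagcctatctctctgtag

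Serpina3g (chr12:104235897-104236196, plus strand): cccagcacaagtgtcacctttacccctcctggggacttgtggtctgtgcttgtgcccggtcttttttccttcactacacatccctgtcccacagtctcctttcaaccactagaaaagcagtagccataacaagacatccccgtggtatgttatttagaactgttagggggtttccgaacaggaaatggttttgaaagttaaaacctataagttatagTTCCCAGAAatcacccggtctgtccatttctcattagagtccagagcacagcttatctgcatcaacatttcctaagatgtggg

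Serpina3f (chr12:104214294-104214593, plus strand): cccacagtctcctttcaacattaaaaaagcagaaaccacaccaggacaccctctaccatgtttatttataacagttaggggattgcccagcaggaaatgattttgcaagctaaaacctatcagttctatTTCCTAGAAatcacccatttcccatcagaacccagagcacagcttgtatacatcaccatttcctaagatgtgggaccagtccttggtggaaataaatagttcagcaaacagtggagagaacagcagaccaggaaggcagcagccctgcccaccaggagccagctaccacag

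The windows of Serpina3g and Serpina3f were identical at 83.7% of 202 aligned bases, and both held a TTCNNNGAA match, at -33 to -25 from the start in Serpina3g and at -121 to -113 in Serpina3f. The windows of Serpinb9 and Serpinb9b were identical at 67.4% of 276 aligned bases, against 48.2% to 65.6% for the 29 pairs of windows of genes that are not close paralogs. The other Serpina3f window (chr12:104214383-104214682) overlaps the one shown and holds the same TTCNNNGAA site. Aligned over its whole length, it was identical to the window of Serpina3g at 61.9% of 247 aligned bases, a value that its shifted start can lower. The window of Serpinb6b was identical to those of Serpinb6a at 60.9% and 56.9% of 256 and 260 bases. These values lay within the range of the pairs that are not close paralogs. Serpinb9 held a match to the spaced GAAA repeat at -46 to -37. The repeat lies on the opposite strand and reads TTTCACTTTC on the strand shown. These letters were not found in the Serpinb9b window. A TTCNNNGAA match was present in 4 of the 9 windows (3 genes) and in 8.30% of all 32851 promoter windows of that length. The spaced GAAA repeat was in 2 of 9 (2 genes) and in 3.44% of all. The 2 Serpina3f windows overlap, and a site that both hold is counted in each, so counts of windows are raised by it. In the first Serpinb6a window the 2 kinds of match overlap each other. The SMAD palindrome GTCTAGAC was found in 0 of the 9 windows and in 0.213% of all windows. The shorter SMAD letters CAGAC were in 5 of 9 (4 genes) and in 49.6% of all. The T-box letters GGTGTGA (3.98% of all windows) and the AP-1 letters TGANTCA (7.81%) had 0 matches among the 9 windows. The RUNX letters TGTGGT (16.8%) were in 4 (3 genes). These are matches of letters and not binding sites.

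Serpinb9, the inhibitor that shields cytotoxic cells from their own granzyme B, had the highest level of the 8 genes in WT. It had 8652 and 9572 counts in WT and 5120 and 5114 in KO, or 365 and 383 CPM against 193 and 189.5 CPM. Both KO libraries lay below both WT libraries, by far more than the gap within either group. The means were 374 ± 12.6 and 191 ± 2.15 CPM (SD, n = 2 each), 1.96-fold lower in KO, with a log2 fold change of -0.97 (SE 0.056, 95% confidence interval -1.09 to -0.85).

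Serpinb9b, the neighbouring paralog whose start lies 24.2 kb from that of Serpinb9, had the deepest difference among the 8. Its counts were 3189 and 3299 in WT and 460 and 564 in KO, which is 135 and 132 CPM against 17.3 and 20.9 CPM. The WT libraries differed by 1.97% and the KO libraries by 20.8%, and the groups were far apart. The means were 133 ± 1.84 and 19.1 ± 2.55 CPM (SD, n = 2 each), 6.98-fold lower in KO (log2 fold change -2.80, SE 0.095, 95% confidence interval -3.01 to -2.60). Relative to Serpinb9, measured per length within each library as a ratio of FPKM (the deposited values scaled for gene length and library depth), Serpinb9b stood at 0.384 and 0.359 in WT and at 0.0937 and 0.115 in KO. An antisense gene, Gm36099, overlaps Serpinb9b, and the strand setting of the read counting is not given in the sources used here. Of the 100-base runs in Serpinb9b transcripts 1.91% also occur in transcripts of another gene, all of them in Gm36099. Serpinb9 and Serpinb9b transcripts share 13 runs of 50 bases and 0 runs of 100 bases.

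Serpinb6b and Serpinb6a, a pair of paralogs in the same cluster, were lower in KO to different degrees. Serpinb6b is known as an inhibitor of mouse granzyme A, and Serpinb6a as an inhibitor of cathepsin G and other serine proteases. Serpinb6b had 3333 and 3285 counts in WT and 1417 and 1698 in KO, or 141 and 131 CPM against 53.3 and 62.9 CPM. Its KO libraries differed by 18.1%, which was 4.62 times the counting error, and still lay well below WT. The group means were 136 ± 6.53 and 58.1 ± 6.81 CPM (SD, n = 2 each), 2.34-fold lower (log2 fold change -1.23, SE 0.085). Serpinb6a had 1995 and 1897 counts in WT and 1515 and 1463 in KO, or 84.2 and 75.9 CPM against 57.0 and 54.2 CPM. That is 80.1 ± 5.87 against 55.6 ± 1.95 CPM, 1.44-fold lower (log2 fold change -0.53, SE 0.083), the least of the 7 lower genes. Serpinb6a overlaps the listed genes Nqo2 and Ripk1, and 19.9% of the 100-base runs in its transcripts occur in transcripts of other genes, so its value is uncertain.

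Serpinb1a was the only one of the 8 that was higher in KO. It encodes the leukocyte elastase inhibitor, which also inhibits cathepsin G and proteinase 3 and is abundant in neutrophils. It had 2846 and 3223 counts in WT and 4681 and 4537 in KO, or 120.1 and 129 CPM against 176 and 168 CPM. Both KO libraries were above both WT libraries. The means of 125 ± 6.25 and 172 ± 5.60 CPM (SD, n = 2 each) gave a 1.38-fold higher level in KO (log2 fold change 0.47, SE 0.064, 95% confidence interval 0.33 to 0.60). Of the 12 neutrophil markers 8 were called higher in the same libraries, among them the receptor gene Csf3r with 99.1 and 97.8 CPM in WT and 237 and 247 CPM in KO. The granule genes Lcn2 and Mmp9 were among those called higher (log2 fold change 1.61 and 0.55). The 4 markers not called were the granule genes Ngp, Camp, Mpo and Ltf. Both KO libraries lay above WT for Ngp (1.86) and Camp (1.80). The groups overlapped for Mpo (0.87) and for Ltf (-0.41), which had 20.2 and 25.05 against 23.3 and 10.8 CPM. The markers' part in the Serpinb1a difference was not tested.

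Serpine2, also called protease nexin-1, is a secreted inhibitor of thrombin and plasminogen activators that also binds granzyme A. Its counts were 5272 and 6050 in WT and 1560 and 1709 in KO, or 223 and 242 CPM against 58.7 and 63.3 CPM. The replicate libraries differed by 8.79% in WT and 7.95% in KO, and the groups did not overlap. The means of 232 ± 13.8 and 61.0 ± 3.30 CPM (SD, n = 2 each) were 3.81-fold apart (log2 fold change -1.93, SE 0.070, 95% confidence interval -2.08 to -1.78), the second deepest difference of the 8. Of the 100-base runs in its transcripts, 0 of 8175 occur in another gene. Serpine2 is also made by fibroblasts, and the 8 fibroblast markers summed to 1527 and 1391 CPM in WT and 1342 and 1495 CPM in KO, with overlap between the groups. Most of that sum was Fn1, which fell (log2 fold change -0.22), while Col1a1, Col1a2 and Pdgfrb rose by 0.24, 0.37 and 1.04 and 4 markers were not called (edgeR). The part of these cells in the Serpine2 value was not tested.

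Serpina3g and Serpina3f were lower to a similar degree. Serpina3g, also called Spi2A, is an intracellular inhibitor of lysosomal cathepsins that is known from the survival of memory CD8 T cells. It had 2423 and 2453 counts in WT and 1305 and 1400 in KO, or 102 and 98.1 CPM against 49.1 and 51.9 CPM. Its means of 100.2 ± 2.91 and 50.5 ± 1.98 CPM (SD, n = 2 each) were 1.98-fold apart (log2 fold change -0.99, SE 0.076). Serpina3f had 1059 and 1328 counts in WT and 586 and 600 in KO, or 44.7 and 53.1 CPM against 22.0 and 22.2 CPM. The WT libraries were 18.9% apart, 4.20 times the counting error, and both remained above KO. The means of 48.9 ± 5.97 and 22.1 ± 0.139 CPM were 2.21-fold apart (log2 fold change -1.14, SE 0.11). The ratio of Serpina3f to Serpina3g FPKM was 0.402 and 0.498 in WT and 0.413 and 0.394 in KO, so the KO values reached into the WT range. Of the 50-base runs in Serpina3g transcripts, 15.5% occur in other genes (10.6% for Serpina3f), mostly in neighbouring copies of the family including each other, so part of the reads of either could have been assigned to the other and both values are uncertain.

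**Figure D1:**
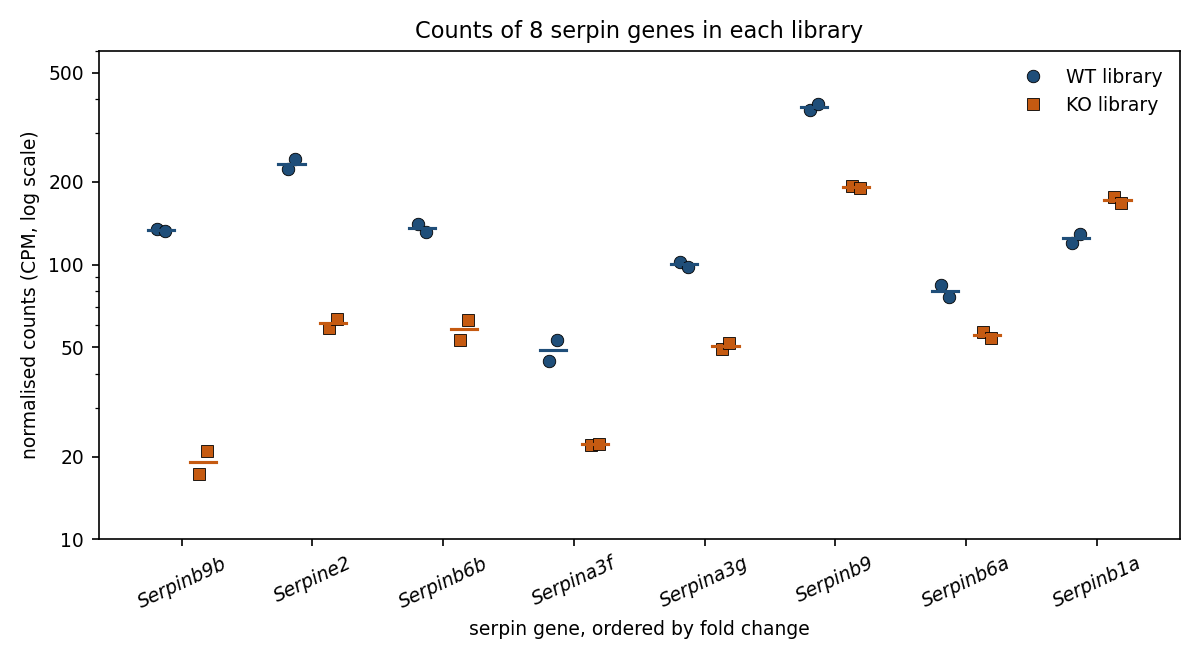
Normalised counts (CPM, log scale) of the 8 serpin genes in each library, ordered by fold change, with circles for WT, squares for KO and short lines for the group means. In 7 genes both squares lie below both circles, farthest apart in Serpinb9b (133 against 19.1 CPM), and in Serpinb1a both lie above.

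In all, 7 of the 8 had lower and 1 had higher CPM in KO, and no p-value is given for them. Of all tested genes 11% were called lower, 10.1% higher and 21.2% in either direction at a Benjamini-Hochberg adjusted p under 0.05 (edgeR). Groups did not overlap in all 8, beside 59.8% of all tested genes, 30% with both KO libraries below WT and 29.7% with both above. Since the genes were chosen from this comparison, nothing is read from these shares. The median log2 fold change of the 8 was -1.07, and that of all tested genes -0.0037. Higher calls made up 47.9% of all calls, or 67.5% with library totals alone as the scaling. Under that scaling 7 of the 8 genes had a negative and 1 a positive log2 fold change. In bulk RNA, fewer cells of a type and less RNA per cell cannot be told apart. The 9 CD8 T cell markers themselves ranged from -0.96 for Cd8b1 to -0.14 for Cd3d on that scale, with a median of -0.59. Cd8b1, Cd8a and Cd247 were the deepest of them, and Cd3e had -0.72. Against Cd8b1, the log2 fold change of Serpinb9 was lower by 0.01 and that of Serpina3g by 0.03, and against Cd3e they were lower by 0.25 and 0.27. Serpinb6b was lower than Cd8b1 by 0.27 and than Cd3e by 0.51, and Serpina3f by 0.19 and 0.42. Serpine2 was lower than Cd8b1 by 0.97 and Serpinb9b by 1.85. Serpinb6a was less changed than Cd8a, Cd8b1 and Cd3e. Cd3d and Cd3e are not specific to CD8 T cells, and Cd4 had 26.9 and 32.2 CPM in WT and 63.1 and 67.7 CPM in KO. What part the abundance of CD8 T cells or of other cells, other T cells and tumour cells included, has in these differences was not tested.

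Levels were compared between genes with the deposited FPKM, which are per length. In WT the order was Serpinb9 at 103 ± 3.70 FPKM, Serpinb6b at 57.9 ± 2.65, Serpinb1a at 52.1 ± 2.73, Serpina3g at 45.8 ± 1.23, Serpinb9b at 38.3 ± 0.445, Serpine2 at 27.0 ± 1.67, Serpina3f at 20.6 ± 2.55 and Serpinb6a at 14.2 ± 1.01 (SD, n = 2). No neighbours in that order had overlapping libraries. In KO, Serpinb1a came first at 72.3 ± 2.50 FPKM, followed by Serpinb9 at 52.9 ± 0.701, Serpinb6b at 24.9 ± 2.87 and Serpina3g at 23.2 ± 0.865. The libraries of Serpinb6b and Serpina3g overlapped. Serpinb6a at 9.95 ± 0.369, Serpina3f at 9.36 ± 0.0401, Serpine2 at 7.13 ± 0.371 and Serpinb9b at 5.52 ± 0.725 FPKM followed without overlap. In WT, Serpinb9 was above 96.3% of all tested genes in FPKM and Serpinb9b above 89.6%. In KO these shares were 92.4% and 55.9%.

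Summed over the 8 genes, the level was 355 and 363 FPKM in WT and 204 and 206 FPKM in KO. Serpinb1a made up 14.1% and 14.9% of that sum in WT and 36.3% and 34.2% in KO. Serpinb9 kept a similar place, with 28.3% and 29.1% against 26.1% and 25.4%, although its KO values were below its WT values. Serpinb9b went from 10.9% and 10.5% to 2.45% and 2.92%.

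**Figure D2:**
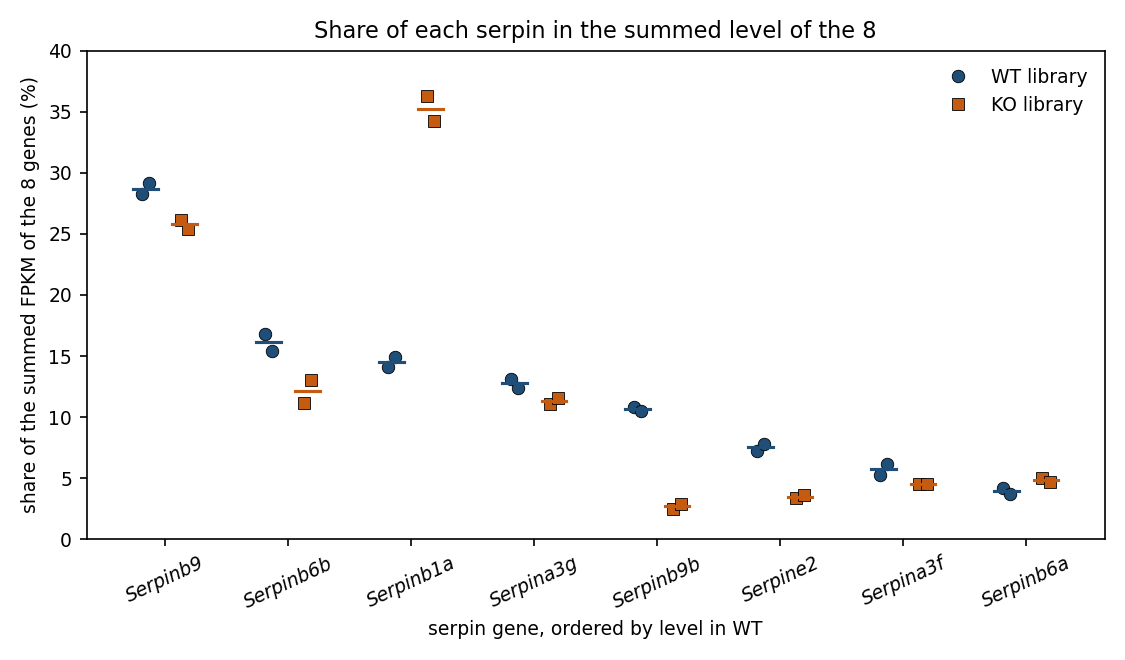
Share of each gene in the summed FPKM of the 8 serpins, in percent, for each WT library (circles) and KO library (squares), with lines for the group means. Serpinb1a has the highest share in both KO libraries (36.3% and 34.2%), and Serpinb9 in both WT libraries (28.3% and 29.1%).

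Genes of the proteases that these serpins are known to inhibit were read from partner lists, which were also made with earlier results of these data known. Their adjusted p-values come from the fit over all genes and do not stand as independent support. Of 12 granule genes, which include the pore-forming Prf1 and the proteoglycan Srgn, 10 were listed and tested. Of these 6 fell in KO and 0 rose by edgeR, beside 11% of all tested genes lower and 10.1% higher, with a median log2 fold change of -1.83. The number higher was 0 by DESeq2, by limma-voom and before adjustment of p as well. Gzmb, the target of Serpinb9, had 9407 and 9969 counts in WT and 2302 and 2527 in KO (log2 fold change -2.14, adjusted p = 2.31e-10). The FPKM ratio of Serpinb9 to Gzmb was 0.378 and 0.395 in WT and 0.914 and 0.832 in KO, on average 2.26-fold higher. Both messages were less abundant in KO, and that of the protease was lower by the greater factor. The granzyme genes Gzmd, Gzme, Gzmf and Gzmk fell as well, from -3.53 for Gzmd to -1.62 for Gzmf on the log2 scale, although Gzmd and Gzme are near-identical relatives between which reads may be split. Prf1 fell by 2.21 on that scale. Gzmc (0.11), Gzmm (0.13) and Srgn (-0.08) were not called.

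Gzma, the target of Serpinb6b and Serpine2, had few counts, 196 and 224 in WT and 175 and 138 in KO, and was not called (log2 fold change -0.56, edgeR adjusted p = 0.0932). It was called lower without KO replicate 1 (adjusted p = 0.0226), and its adjusted p ranged from 0.0226 to 0.367 over the alternatives. The ratio of Serpinb6b to Gzma FPKM was 7.56 and 6.52 in WT and 3.60 and 5.47 in KO. The ratio of Serpine2 to Gzma was 3.27 and 3.28 in WT and 1.08 and 1.503 in KO. Both ratios were lower in KO, in the opposite direction to that of Serpinb9 to Gzmb, and they rest on the few Gzma counts.

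Serpina3g is known to inhibit cysteine cathepsins of the lysosome such as those encoded by Ctsb and Ctsl. The cathepsin list of 12 genes also holds Ctsa and Ctsd, which encode proteases of other classes. All 12 were tested, and 2 rose and 3 fell by edgeR, beside 10.1% and 11% of all tested genes. The median log2 fold change was -0.043. Ctsb had a log2 fold change of 0.01 (SE 0.052, edgeR adjusted p = 0.911), a value that was negative without WT replicate 1 (-0.030) or KO replicate 1 (-0.014). Ctsl rose by 0.22 on the log2 scale (edgeR adjusted p = 0.00818), a call lost without WT replicate 2 (adjusted p = 0.0573). The calls of Ctsc (lower, -0.26) and Ctsw (lower, -0.60), which encodes a cathepsin of cytotoxic lymphocytes, held under every alternative run, while those of Ctss (lower, -0.18) and Ctsz (higher, 0.18) were lost under several. Without WT replicate 2 the adjusted p of Ctss was 0.279 and that of Ctsz 0.0528, without KO replicate 2 that of Ctss was 0.198, and without WT replicate 1 or KO replicate 1 that of Ctsz was 0.256 or 0.130 (edgeR). The ratio of Serpina3g to Ctsb FPKM was 0.0476 and 0.0433 in WT and 0.0217 and 0.0237 in KO, and that of Serpina3g to Ctsl 0.384 and 0.375 in WT and 0.163 and 0.165 in KO. Monocyte and macrophage markers were abundant in every library, as given above, and Ctsb and Ctsl are also made by those cells.

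The neutrophil serine proteases, targets of Serpinb1a and Serpinb6a, were near the limit of detection. Elane had 12 and 19 counts in WT and 74 and 17 in KO, Prtn3 66 and 57 against 30 and 76, and Ctsg 3 and 6 against 16 and 4. Calls numbered 0 for the 2 tested genes by edgeR, before and after adjustment of p, and 0 by DESeq2 and limma-voom. Elane was called higher without KO replicate 2 (adjusted p = 0.00270) and had a log2 fold change of -0.011 without KO replicate 1, so its level rests on 1 library, and no ratio is given.

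**Figure D3:**
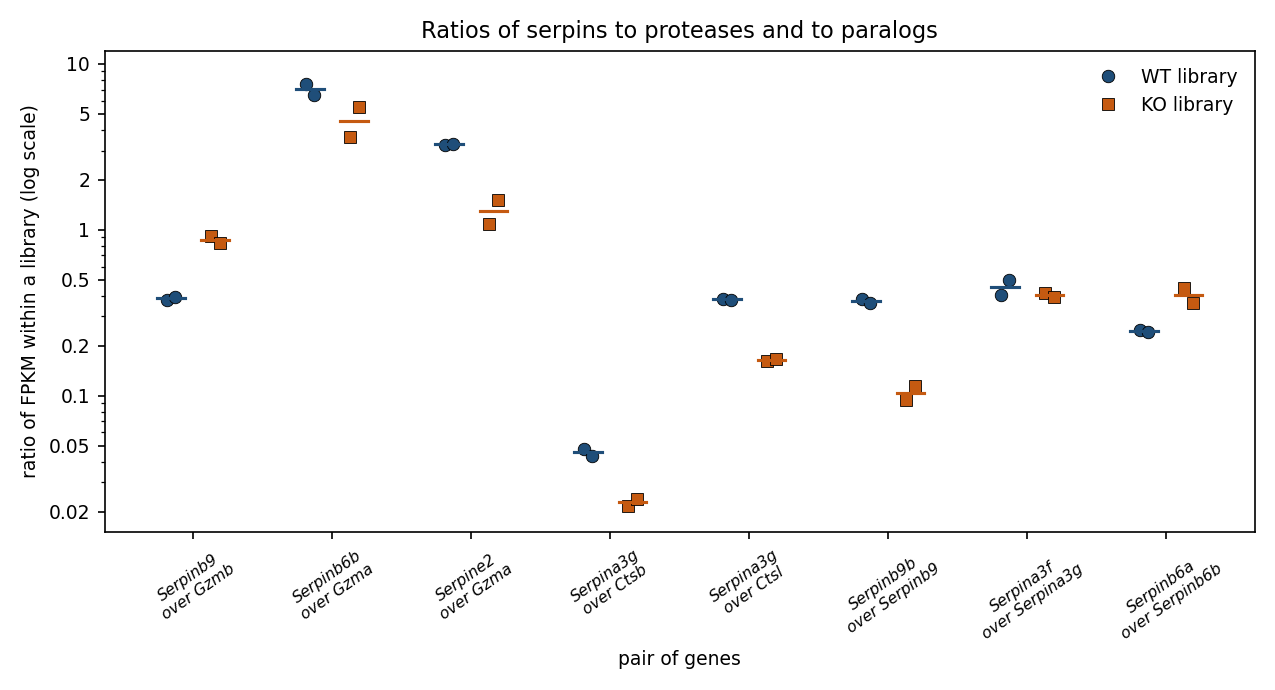
Ratios of FPKM within each library (log scale) for serpins over known target proteases and for paralogs, with circles for WT, squares for KO and lines for the group means. Serpinb9 over Gzmb is higher in KO (0.914 and 0.832 against 0.378 and 0.395), and Serpinb9b over Serpinb9 is lower in KO.

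Of 10 genes for extracellular proteases and receptors around the secreted Serpine2, 9 were tested. By edgeR 2 were higher, 2 lower and 5 not called, beside 21.2% of all tested genes called in either direction. F2r, the thrombin receptor, fell (28.4 and 26.4 CPM to 13.6 and 12.5 CPM, log2 fold change -1.07, edgeR adjusted p = 0.000102), and so did Lrp1, the endocytic receptor that clears complexes of serpin and protease (log2 fold change -0.50, adjusted p = 0.000232). F3, tissue factor, and Plaur, the urokinase receptor, were higher by 1.21 and 0.28 on the log2 scale (edgeR adjusted p = 0.00778 and 0.00537). Without WT replicate 1 both calls were lost (adjusted p = 0.0936 and 0.0830).

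The cluster on chromosome 13 spans 1161 kb from 32842092 to 34002794 and holds 15 protein-coding serpins in GENCODE M21, of which 6 were listed and 9 were not. The lowest sum over the 4 libraries of any listed gene was 20 counts. From left to right along the chromosome, Serpinb1a was higher in KO, the next 4 listed serpins (Serpinb6b, Serpinb9, Serpinb9b and Serpinb1b) were lower, and Serpinb6a at the far end was lower by less. The other genes in and beside the cluster were chosen by position after the data were seen. On the side of Serpinb1a, Wrnip1 and Mylk4 were higher by 0.74 and 0.44 on the log2 scale (edgeR adjusted p = 1.29e-05 and 0.0456), and Gmds was not called (0.22, adjusted p = 0.0564). Inside the span, Nqo2, which overlaps Serpinb6a, had a log2 fold change of -0.38 (adjusted p = 0.0432), and Ripk1, which overlaps the end of the span, was not called. Beyond that end, Tubb2a had -0.29 (adjusted p = 0.0172), and Bphl and Tubb2b were not called (edgeR).

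**Figure D4:**
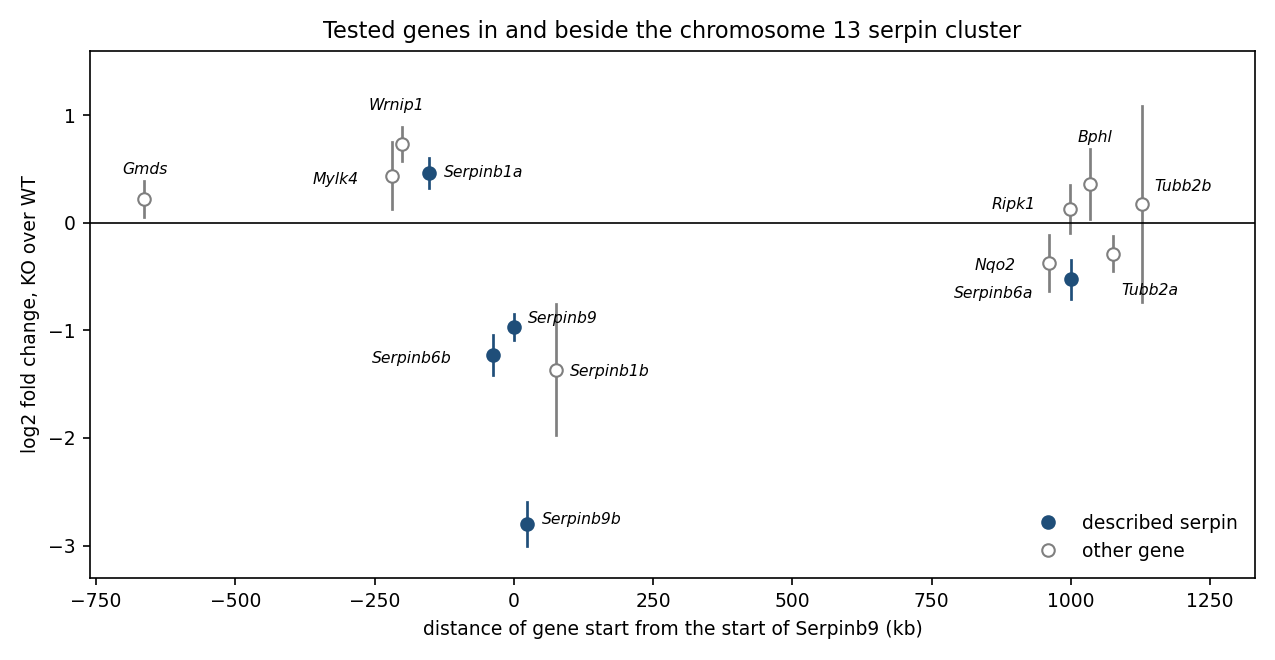
Log2 fold change (KO over WT, points, with 95% confidence intervals) of tested genes in and beside the chromosome 13 serpin cluster against the distance of their start from the start of Serpinb9 in kb, with filled points for the described serpins. Serpinb6b (-1.23), Serpinb9 (-0.97), Serpinb9b (-2.80) and Serpinb1b (-1.37) lie side by side from -38.04 to 75.3 kb, with Serpinb1a (0.47) above 0 to their left and Serpinb6a (-0.53) to their right.

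Beyond the 8, 14 serpin genes were listed and 12 of them tested. Of these 4 were higher, 1 was lower and 7 were not called, with a median log2 fold change of -0.04. Among all tested genes 10.1% were called higher and 11% lower (edgeR). Serpinb1b, which encodes a relative of Serpinb1a, had 149 and 146 counts in WT and 57 and 69 in KO and fell by 1.37 on the log2 scale (SE 0.28, edgeR adjusted p = 0.00415), a direction opposite to that of Serpinb1a. Of the 50-base runs in Serpinb1a transcripts 2.81% occur in other genes, Serpinb1b and Serpinb1c among them. Serpinh1, a collagen chaperone, rose from 23.4 and 24.3 to 34.8 and 35.2 CPM (log2 fold change 0.55, edgeR adjusted p = 0.00317). Serpinb2, an inhibitor of plasminogen activators made by macrophages, had 8.06 and 9.24 CPM in WT and 15.3 and 13.7 CPM in KO (0.75, adjusted p = 0.00844). Serpinf1, pigment epithelium-derived factor, had 30.0 and 30.4 against 40.7 and 41.5 CPM (0.44, adjusted p = 0.00751), and Serpina3n 3.59 and 3.60 against 7.56 and 5.89 CPM (0.90, adjusted p = 0.0239). The calls of Serpinb2 and Serpinf1 were lost without WT replicate 1 (edgeR adjusted p = 0.0913 and 0.0658), and that of Serpina3n without WT replicate 1, WT replicate 2 or KO replicate 1 (0.124, 0.107 and 0.0837). Over all alternatives their adjusted p-values (edgeR, DESeq2 or limma) started at 0.000662, 0.00178 and 0.00213. Serpinb5 and Serpina3c, with at most 11 and 16 counts in a library, were not tested.

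**Figure D5:**
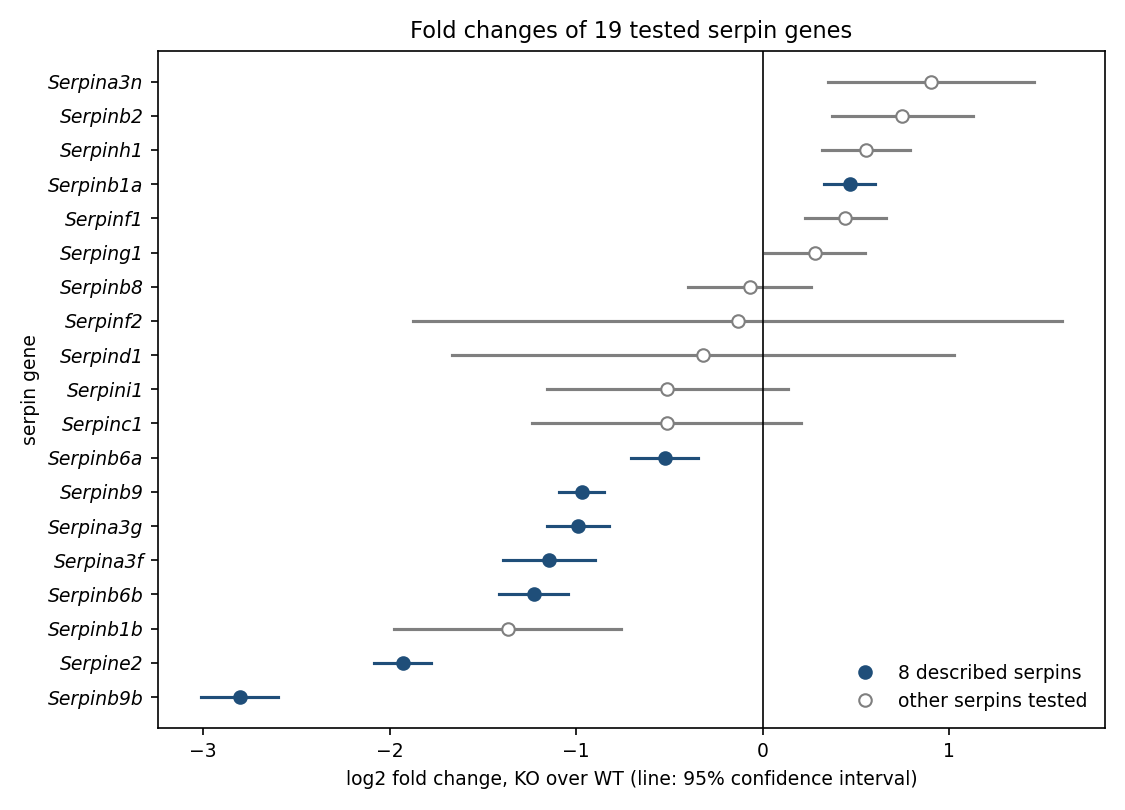
Log2 fold change, KO over WT, of 19 tested serpin genes with 95% confidence intervals, filled for the 8 described genes and open for 11 other serpins. The 7 lower described genes lie between -2.80 and -0.53, and the open points spread on both sides of 0 with Serpinb1b (-1.37) the lowest of them.

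Genes with the most similar pattern were sought for Serpinb9, Serpinb9b and Serpine2 by the Euclidean distance of gene-centred log2 CPM over the 4 libraries, among 9860 genes of at least 5 CPM. With 4 libraries in 2 groups this mostly measures the size of the group difference. Nearest to Serpinb9 was Cd8b1, at a distance of 0.061, followed by Vgll4 and Atxn1. Nearest to Serpine2 were Galnt18, Klre1, a killer lectin-like receptor, and Bach2, at 0.065 to 0.099. Serpinb9b had no neighbour as close, with Fcrl6, Slc17a6 and Upk1a at 0.39 to 0.55.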

How the data were processed

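For each of the 4 libraries the authors deposited 14082 genes with whole-number counts and, per the file headers, FPKM (fragments scaled for gene length and library depth). Per the submitters' processing notes, Bowtie2, featureCounts and Trim Galore 0.4.4 were among the tools, as were DESeq2 and edgeR, and the build was mm10. Their roles, the annotation and the strand setting of the counting are not given there. All genes were tested on the deposited counts with edgeR 4.0.16 in R 4.3.3 (TMM, filterByExpr at its minimum count of 10 and minimum total of 15, robust quasi-likelihood fit, Benjamini-Hochberg adjusted p under 0.05), which removed 724 genes. Standard errors were derived from each log2 fold change and the F of its test. Deposited FPKM served for levels between genes and for ratios within a library, without a test. Replicate libraries were further apart than sampling of reads gives (chi-square per degree of freedom 7.74 in WT and 10.0 in KO), so each counted as 1 sample. Counting errors cover sampling of reads only.

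The edgeR step was tested on simulated data for KO over WT with 13188 genes, where it called 28 of 50 genes made to change 1.5-fold, 40 of 50 at 2-fold, 49 of 50 at 3-fold and 50 of 50 at 4-fold. False calls were 1.18% of all its calls. Alternatives were DESeq2 1.42.0, limma-voom (limma 3.58.1), other scalings and filters, the replicate number as a block and leaving out each library. Fits without mitochondrial genes and with crossed replicate numbers were chosen after seeing the data. Sequence identities were computed with Biopython 1.88, and promoter windows are from RefSeq. The genes, partner lists, marker lists and the rule for named genes (the 8 serpins, other serpins by call, partners of the lists by call or as known targets, and 3 nearest genes for 3 serpins) were chosen with earlier results of these data known. Some genes of these lists are not reported here.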

Additional observations from a re-analysis of the deposited data

How the results depend on the processing

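The 8 serpins kept their direction in 112 of 112 recomputed values over 14 alternatives, planned and added. The genes were chosen with this comparison known and every alternative reuses the same libraries, so this count is a description and no support. Log2 fold changes stayed between -2.95 and -2.67 for Serpinb9b, between -1.01 and -0.88 for Serpinb9 and between 0.41 and 0.55 for Serpinb1a. Over all genes 1354 were called higher and 1472 lower. Library totals alone gave 2105 higher and 1013 lower, and leaving out 1 library gave 714 to 1605 higher and 831 to 1787 lower, the lowest without WT replicate 1, followed by 837 and 922 without WT replicate 2. With the replicate number as a block 1393 were higher and 1522 lower. Deviations of same-numbered libraries correlated at -0.103 across 10040 genes, and the crossed pairing gave 1673 and 1770, so the numbers were not taken as pairs. The block lost the calls of Ctss, Ctsz and Cst3 and changed no call among the tested serpins beyond the 8. Mitochondrial genes left out and the crossed pairing were added after seeing the data. Library totals alone moved the median of all genes by 0.085 on the log2 scale, added a higher call for Serping1 (0.37, edgeR adjusted p = 0.0479) and turned the uncalled value of Serpinb8 to 0.016. Leaving out 1 library gave -0.25 to 0.10 for Serpinb8, -0.39 to 0.083 for Serpinf2, -1.19 to 0.22 for Serpind1, -0.063 to 0.40 for Smad4, -0.030 to 0.054 for Ctsb and -0.011 to 2.12 for Elane, and the cause was not tested. Low counts limit Gzma, Elane, Prtn3 and Ctsg.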

Other observations

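Cystatins and stefins, inhibitors of cysteine cathepsins that are not serpins, divided by gene. Of 9 genes 6 were in the tables and 5 were tested. By edgeR 2 were higher and 2 lower in KO, beside 10.1% and 11% of all tested genes. Cst7, cystatin F of cytotoxic lymphocytes and myeloid cells, had 218 and 204 CPM in WT and 94.5 and 106 CPM in KO (log2 fold change -1.07, SE 0.070, edgeR adjusted p = 4.08e-07). Stfa2l1, which has near-identical copies, rose from 1.92 ± 0.276 to 8.22 ± 1.52 CPM (2.10, edgeR adjusted p = 0.000180), beside the higher neutrophil markers, whose part in it was not tested. Cstb, a widely made cytosolic inhibitor, had 367 and 397 CPM in WT and 375 and 388 CPM in KO, with overlap between the groups. Stfa1 (higher, 7 and 7 counts in WT, 28 and 50 in KO) lost its call without WT replicate 1, WT replicate 2 or KO replicate 2 (edgeR adjusted p = 0.180, 0.178 and 0.127). Cst3 (lower by 0.15 on the log2 scale, adjusted p = 0.0431) lost its call whichever library was left out (edgeR adjusted p = 0.133, 0.259, 0.139 and 0.136 without WT replicate 1, WT replicate 2, KO replicate 1 and KO replicate 2).

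Markers of other cell types gave these values, beside 10.1% of all tested genes called higher and 11% called lower by edgeR. The 6 B cell markers summed to 7.39 and 7.84 CPM in WT and 22.6 and 17.3 CPM in KO (3 higher of 5 tested). The 8 dendritic cell markers summed to 232 and 229 against 338 and 347 CPM (2 higher, 1 lower). Most of that rise was Siglech, with 67.1 and 64.9 CPM in WT and 168 and 174 CPM in KO. Flt3 was also higher, Cd209a was lower, and the other dendritic cell markers were not called. The 6 endothelial markers summed to 60.1 and 56.8 against 54.5 and 55.03 CPM, with 4 lower by edgeR (2 by DESeq2 and 3 by limma-voom). Those 4 were Kdr, Tek, Vwf and Emcn. Most of the sum was Pecam1, which was not called (41.7 and 36.2 against 42.2 and 43.7 CPM). The 4 listed mast cell and basophil markers summed to 71.1 and 75.5 against 148 and 126 CPM (1 higher of 2 tested), most of it Cpa3. The 3 CD4 T cell markers summed to 48.6 and 51.2 against 86.3 and 90.3 CPM (1 higher, Cd4). The 3 listed NK cell markers summed to 56.1 and 58.9 against 15.5 and 17.6 CPM, nearly all of it Klre1. Of the 12 monocyte and macrophage markers 2 were higher and 2 lower, and of the 8 fibroblast markers 3 were higher and 1 lower. Their part in the serpin values was not tested.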
